A study of Mus musculus with 15 samples.

Results

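The genes described here are 10 mouse genes of class I antigen presentation, H2-K1, H2-D1, H2-T23, B2m, Tap1, Tap2, Tapbp, Psmb8, Psmb9 and Psmb10. They were chosen by name and found by their Entrez Gene IDs among the 23510 gene IDs of an RNA sequencing table of mouse testis. All 10 passed the filter on low values, a mean of 1 or more over the libraries, as did 14514 genes in all. The study used male mice of the outbred ICR stock and asked what M1, M3 and M5, which are muscarinic receptors for acetylcholine, do in spermatogenesis. Its 15 libraries fall into 5 groups of 3. Con is labelled control, and the labels give no treatment for it. MNC received a vector control lentivirus, and M1, M3 and M5 received lentivirus with shRNAs against the receptor of that name. Per the study's methods, virus was injected into the testis of mice aged 5 weeks, 3 shRNAs were mixed for each receptor, and testes were collected 10 days later. The virus was placed in the testis with no cell type chosen in the sources used here, and shRNAs lower a transcript rather than delete its gene. Whether Con testes were handled or injected in any way is not given in the sources used here, so virus, shRNA and injection cannot be told apart in any comparison with Con.

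Class I molecules show peptides from inside a cell to CD8 T cells and natural killer cells. The proteasome cuts proteins into peptides, the Tap1 and Tap2 proteins carry the peptides into the endoplasmic reticulum, tapasin (Tapbp) holds the transporter and the empty class I molecule together, and a heavy chain pairs with the light chain B2m and goes to the cell surface. Interferons raise most of these genes, and under interferon gamma the catalytic subunits Psmb8, Psmb9 and Psmb10 replace their constitutive counterparts to form the immunoproteasome. Germ cells of the testis are known for low class I levels, while macrophages, lymphocytes and the endothelium of the interstitium carry more. In a bulk library, more cells of a type and more RNA per cell cannot be told apart.

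Of the 10 genes, 8 lie in the major histocompatibility complex on chromosome 17. In RefSeq coordinates of GRCm38.p6, the patch release of the build mm10 that the submitters' notes name, Tapbp is at chr17:33919478-33929290 and H2-K1 at chr17:33996012-34000619. Psmb9 at chr17:34182030-34187330, Tap1 at chr17:34187556-34197225, Psmb8 at chr17:34198195-34201454 and Tap2 at chr17:34204479-34216321 follow each other without another member between them. H2-D1 is at chr17:35263094-35267497 and H2-T23 at chr17:36029977-36032701. B2m is at chr2:122147687-122153082 and Psmb10 at chr8:105935728-105938392. Psmb9 and Tap1 are read in opposite directions from start sites 226 bases apart.

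The stretches just before 4 of the start sites are shown because interferon response elements, NF-kB sites and CCAAT boxes of class I promoters are textbook control elements of these genes, and because H2-D1, H2-T23 and B2m are the members whose levels separated the groups best together with Psmb8. They are RefSeq reference sequence of GRCm38.p6, 5′ to 3′ on the strand of the gene, and not sequence of these mice. Capitals mark matches on either strand to AANNGAAA (the core of an interferon response element), GGGANTCCC (an NF-kB site) or CCAAT. The H2-D1 stretch is chr17:35262844-35263093, plus strand, the H2-T23 stretch chr17:36032702-36032951, minus strand, and the B2m stretch chr2:122147437-122147686, plus strand, each of 250 bases. The last is the whole of the 225 bases between the start sites of Psmb9 and Tap1, chr17:34187331-34187555, on the strand of Tap1.
H2-D1: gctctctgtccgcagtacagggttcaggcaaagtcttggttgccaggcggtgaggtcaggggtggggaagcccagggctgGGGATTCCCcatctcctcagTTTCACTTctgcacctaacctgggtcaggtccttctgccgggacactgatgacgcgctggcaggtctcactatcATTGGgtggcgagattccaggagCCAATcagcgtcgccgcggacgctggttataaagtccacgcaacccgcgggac
H2-T23: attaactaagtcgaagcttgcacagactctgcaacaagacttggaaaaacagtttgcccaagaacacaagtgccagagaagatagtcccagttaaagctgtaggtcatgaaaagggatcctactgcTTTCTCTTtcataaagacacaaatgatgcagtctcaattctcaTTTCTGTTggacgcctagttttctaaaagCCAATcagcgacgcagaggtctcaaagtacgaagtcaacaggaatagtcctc
B2m: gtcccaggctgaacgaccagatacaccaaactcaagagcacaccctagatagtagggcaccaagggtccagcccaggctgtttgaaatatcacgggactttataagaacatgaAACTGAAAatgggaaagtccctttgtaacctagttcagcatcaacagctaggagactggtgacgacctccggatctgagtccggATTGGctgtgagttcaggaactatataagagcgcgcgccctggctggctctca
Tap1 and Psmb9: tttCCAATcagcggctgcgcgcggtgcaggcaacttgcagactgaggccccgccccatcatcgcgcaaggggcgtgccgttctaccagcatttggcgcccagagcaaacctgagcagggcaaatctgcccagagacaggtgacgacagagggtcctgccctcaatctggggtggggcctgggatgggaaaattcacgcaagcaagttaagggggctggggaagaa

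Of the 10 members, 9 had an entry in the table of promoter windows (250 bases before to 50 after a start site, the first listed for each gene). AANNGAAA occurred in 4 of these 9, H2-K1, H2-D1, H2-T23 and B2m, and in 24.2% of the 27025 promoter windows of all genes. GGGANTCCC occurred in 2 of 9, H2-K1 and H2-D1, and in 0.777% of all windows. CCAAT occurred in 7 of 9, all but Psmb8 and Psmb10, and in 37.9% of all windows. The windows of H2-K1 and H2-D1 were alike at 206 of 228 aligned positions, or 90.4%. A match is a run of letters and was not tested as a binding site.

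Levels are given as FPKM, in which the fragments of a gene are divided by its length and by all fragments mapped in that library, so that levels of different genes can be set beside each other. Between 20619 and 20840 genes lay above 0 in each library. Genes whose low values fitted a common step size in every library gave a relative depth of 0.996 to 1.01. That choice of genes favours values near 1, so a like depth was assumed and not tested. The step sizes of low values put the depth at an estimated 21600000 mapped fragments. At that depth the lowest member value, 0.09 FPKM for Tap1, stands for an estimated 7.6 fragments, while every B2m value stands for an estimated 812 or more. The receptors Chrm1, Chrm3 and Chrm5 lay between 0.01 and 0.43 FPKM in all libraries. Chrm1 was at 0.09 to 0.14 FPKM in M1 and 0.1 to 0.11 in MNC, Chrm3 at 0.04 to 0.11 in M3 and 0.01 to 0.05 in MNC, and Chrm5 at 0.22 to 0.37 in M5 and 0.23 to 0.43 in MNC. These ranges overlap for each receptor, and a knockdown is not shown by them. Levels this low could hardly show one. The study reported less M5 protein in testis after the M5 shRNAs, by immunofluorescence and Western blotting. All testis cell lists were present, from Sertoli cell markers to the elongating spermatid markers, whose summed FPKM was 11011 to 21527 in Con and 22162 to 31054 in the other groups. M3 replicate 3 stood apart in the comparison of M5 with M3, where 2 genes of all tested were called with it and 188 without it.

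Con was the group with the lowest mean for 9 of the 10 members, the exception being Tapbp. M5 had the highest mean for 6 members, MNC for 3 and M3 for 1. H2-D1, H2-T23, B2m and Psmb8 were higher in all 12 libraries that received virus than in any Con library. Psmb10 was higher in 11 of the 12 and Psmb9 in 8, while Tap1 and Tapbp were higher in only 4. The shares of all genes with these patterns over the 5 groups were not computed. With 1 virus group taken at a time, 12.8% (M3) to 17.9% (M5) of all genes tested lay wholly above Con.

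**Figure D1:**
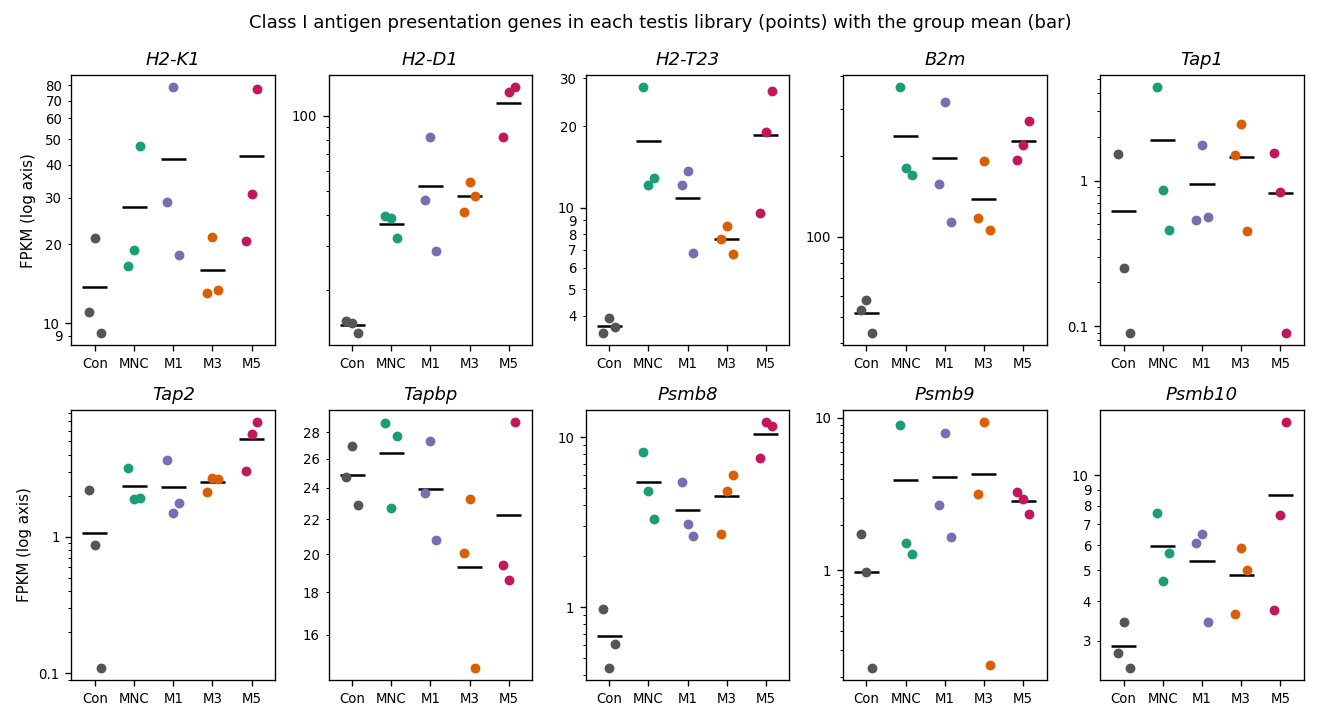
FPKM of each of the 10 genes (log axis, a separate scale for each gene) in the 3 libraries of Con, MNC, M1, M3 and M5; points are libraries in replicate order and bars are group means. H2-D1, H2-T23, B2m and Psmb8 have all 12 virus libraries above the 3 Con libraries, and the M5 points of H2-D1 lie at 81.9 to 130 FPKM.

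H2-D1 encodes a classical heavy chain, which binds the peptide shown to CD8 T cells. Its level was 15.07, 14.79 and 13.5 FPKM in Con replicates 1 to 3 and 39.51, 38.91 and 32.37 in MNC. It was 46.12, 82.45 and 28.76 FPKM in M1, 41.12, 54.38 and 47.53 in M3, and 81.86, 124.3 and 129.95 in M5. The Con libraries lay close together and below every other library, and of the M5 libraries only replicate 1 was reached by a library of another group, M1 replicate 2. The ratio of the group means to that of Con was 2.56 in MNC, 3.63 in M1, 3.3 in M3 and 7.75 in M5.

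H2-K1, the other classical heavy chain gene, varied more within groups. It was at 11.03, 21.08 and 9.2 FPKM in Con and at 16.54, 19.03 and 47.12 in MNC. It was at 28.82, 78.73 and 18.24 FPKM in M1, at 13.07, 21.34 and 13.42 in M3, and at 20.52, 30.95 and 77.47 in M5. Con replicate 2 lay above at least 1 library of every other group, so the groups overlap throughout. The H2-D1 to H2-K1 ratio within a library ran from 0.702 to 1.47 in Con and from 2.55 to 3.54 in M3.

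H2-T23 encodes Qa-1, a nonclassical heavy chain that natural killer cells read through the receptor CD94 with NKG2. It was at 3.45, 3.91 and 3.63 FPKM in Con and at 27.87, 12.17 and 12.92 in MNC. It was at 12.16, 13.65 and 6.79 FPKM in M1, at 7.64, 8.58 and 6.78 in M3, and at 9.55, 19.08 and 26.98 in M5. No library of another group came near the Con range, and the M3 libraries lay below all MNC and M5 libraries.

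B2m encodes the light chain shared by all class I molecules and was the most abundant member in every library. It was at 53.45, 57.92 and 43.69 FPKM in Con and at 363.68, 181 and 171.18 in MNC. It was at 157.14, 318.93 and 113.7 FPKM in M1, at 117.73, 192.61 and 106.24 in M3, and at 193.61, 221.62 and 270.59 in M5. Con lay below all other groups, M3 lay just below M5, and every other pair of groups overlapped. Group means were 4.62 times that of Con in MNC and 4.42 times in M5.

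Tap1 and Tap2 encode the subunits of the peptide transporter and lay near the lower end of the measured range. Tap1 was at 1.52, 0.25 and 0.09 FPKM in Con, 4.37, 0.86 and 0.46 in MNC, 0.54, 1.76 and 0.56 in M1, 1.49, 2.45 and 0.45 in M3, and 1.54, 0.84 and 0.09 in M5. Every group of Tap1 overlapped every other. Tap2 was at 2.19, 0.87 and 0.11 FPKM in Con, 3.18, 1.89 and 1.94 in MNC, 3.64, 1.5 and 1.77 in M1, 2.13, 2.71 and 2.65 in M3, and 3.01, 5.65 and 6.94 in M5. For Tap2, M5 lay above Con and M3 with no overlap, while its replicate 1 fell within the range of MNC and M1. Tap1 did not share that order, and the Tap1 to Tap2 ratio in M5 was 0.512, 0.149 and 0.013.

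Tapbp encodes tapasin, which edits the peptides loaded. It was at 24.77, 26.95 and 22.88 FPKM in Con, 28.71, 22.73 and 27.71 in MNC, 23.66, 27.33 and 20.79 in M1, 20.03, 23.31 and 14.61 in M3, and 19.4, 18.61 and 28.8 in M5. All groups overlapped, and M3 replicate 3 was the lowest library. The group means spanned only 0.777 to 1.06 times that of Con.

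Psmb8, Psmb9 and Psmb10 encode the immunoproteasome subunits that replace Psmb5, Psmb6 and Psmb7. Psmb8 was at 0.97, 0.44 and 0.61 FPKM in Con and at 8.21, 4.85 and 3.32 in MNC. It was at 5.48, 3.1 and 2.62 FPKM in M1, at 2.71, 4.85 and 5.97 in M3, and at 7.57, 12.31 and 11.64 in M5. The gap above Con was the widest of the members in relative terms, with group means 8.11 times that of Con in MNC, 5.54 in M1, 6.7 in M3 and 15.6 in M5. These ratios divide by a low Con mean, 0.673 FPKM, and the Con replicate 2 value stands for an estimated 18.1 fragments. The size of the ratios is therefore uncertain. M5 lay above M1 and M3 without overlap and overlapped MNC.

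Psmb9 was at 1.73, 0.97 and 0.23 FPKM in Con, 8.98, 1.51 and 1.29 in MNC, 2.67, 7.92 and 1.65 in M1, 3.16, 9.42 and 0.24 in M3, and 3.27, 2.93 and 2.35 in M5. A single library carried most of the mean in MNC, M1 and M3, and only M5 lay wholly above Con. Psmb10 was at 2.75, 3.44 and 2.46 FPKM in Con, 7.59, 4.64 and 5.69 in MNC, 6.11, 6.49 and 3.44 in M1, 3.63, 5.89 and 5 in M3, and 3.75, 7.48 and 14.72 in M5. M1 replicate 3 equalled the highest Con library, and the other 11 virus libraries lay above it.

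The comparison of MNC with Con shows what differed between testes given the vector control virus and the control testes. With limma on log2(FPKM + 1), H2-D1, H2-T23, B2m, Psmb8 and Psmb10 rose at an adjusted p under 0.05 and no member fell, so 5 of 10 were called higher, against 8.03% of all genes tested. The same 5 had no overlap between groups, against 15% of all genes with MNC wholly above Con. B2m differed by 2.11 ± 0.295 (SE) on the log2(FPKM + 1) scale (adjusted p = 0.0175), H2-T23 by 1.90 ± 0.297 (adjusted p = 0.0192) and Psmb8 by 1.89 ± 0.282 (adjusted p = 0.0183). H2-D1 differed by 1.29 ± 0.091 (adjusted p = 0.00796) and Psmb10 by 0.83 ± 0.175 (adjusted p = 0.0294). Psmb10 lost its call in 7 of 12 alternatives, among them the fit with no filter (adjusted p = 0.0649), that of all 5 groups together (adjusted p = 0.104) and those without MNC replicate 3 or any 1 Con library (up to 0.105). The other 5 did not pass. Their differences were 1.04 ± 0.613 for Psmb9 (adjusted p = 0.245), 0.88 ± 0.455 for H2-K1 (adjusted p = 0.195), 0.81 ± 0.383 for Tap2 (adjusted p = 0.166), 0.70 ± 0.553 for Tap1 (adjusted p = 0.373) and 0.08 ± 0.104 for Tapbp (adjusted p = 0.594). The median over the 10 members was 0.96, beside a median of -0.095 over all genes tested. Without Con replicate 1 no member was called and only 8 of all genes were, compared with 2967 in the full set, and without Con replicate 2 H2-D1 alone was called. Over the 6 fits that each left out 1 library, the difference of B2m stayed between 1.76 and 2.30, with adjusted p-values of 0.0116 to 0.0866.

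The 3 knockdown groups were compared with the same Con libraries, so the 4 comparisons with Con are not independent. In M1, B2m rose by 1.78 ± 0.357 (SE, log2 scale, adjusted p = 0.0162), H2-D1 by 1.66 ± 0.342 (adjusted p = 0.0169), Psmb8 by 1.47 ± 0.235 (adjusted p = 0.011) and H2-T23 by 1.30 ± 0.229 (adjusted p = 0.0127). Psmb10 rose by 0.68 ± 0.213, with an adjusted p of 0.05 after rounding that lay just under the threshold, and it lost the call in 9 of 12 alternatives, those without M1 replicate 1, M1 replicate 2 or any 1 Con library included. These were 5 of 10 members against 10.3% of all genes called higher, and 4 members had no overlap against 15.1% of all genes. The median over members was 1.27, against -0.115 over all genes. Without Con replicate 1 only Psmb8 was called, and without M1 replicate 1 the count was 3, B2m, H2-T23 and Psmb8.

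In M3, Psmb8 rose by 1.68 ± 0.245 (SE, log2 scale, adjusted p = 0.0254), H2-D1 by 1.65 ± 0.107 (adjusted p = 0.0128), B2m by 1.37 ± 0.228 (adjusted p = 0.027) and H2-T23 by 0.89 ± 0.097 (adjusted p = 0.0238). These 4 of 10 stand beside 7.01% of all genes called higher. Together with Psmb10 they made 5 members with no overlap, against 12.8% of all genes. The median over members was 0.89, against -0.129 over all genes. Without Con replicate 1 or Con replicate 2 no member was called, and without M3 replicate 1 only H2-D1 and Psmb8 were.

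In M5, H2-D1 rose by 2.84 ± 0.173 (SE, log2 scale, adjusted p = 0.000685), Psmb8 by 2.77 ± 0.204 (adjusted p = 0.00133), B2m by 2.12 ± 0.148 (adjusted p = 0.00107) and H2-T23 by 1.96 ± 0.328 (adjusted p = 0.011). Tap2 rose by 1.67 ± 0.419 (adjusted p = 0.0349) and Psmb9 by 1.03 ± 0.285 (adjusted p = 0.0457). Psmb9 lost its call in 10 of 12 alternatives, those without M5 replicate 1, M5 replicate 2, Con replicate 2 or Con replicate 3 included. Tap2 lost it in 7 of 12, those without M5 replicate 2, M5 replicate 3, Con replicate 2 or Con replicate 3 included. These 6 of 10 stand beside 9.32% of all genes called higher, and 7 members had no overlap, the 6 and Psmb10, against 17.9% of all genes. The median over members was 1.55, against -0.044 over all genes. Leaving out any 1 library left 4 to 6 members called, but not always the same ones. Without M5 replicate 3 the 6 included Tapbp and not Tap2. The other M5 libraries of Tapbp, at 19.4 and 18.61 FPKM, lay below every Con library, so that call was lower. Without M5 replicate 1 the 6 included Psmb10 and not Psmb9. H2-D1 differed in these fits by 2.72 to 3.05 with adjusted p-values of 5.74e-05 to 0.00606.

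**Figure D2:**
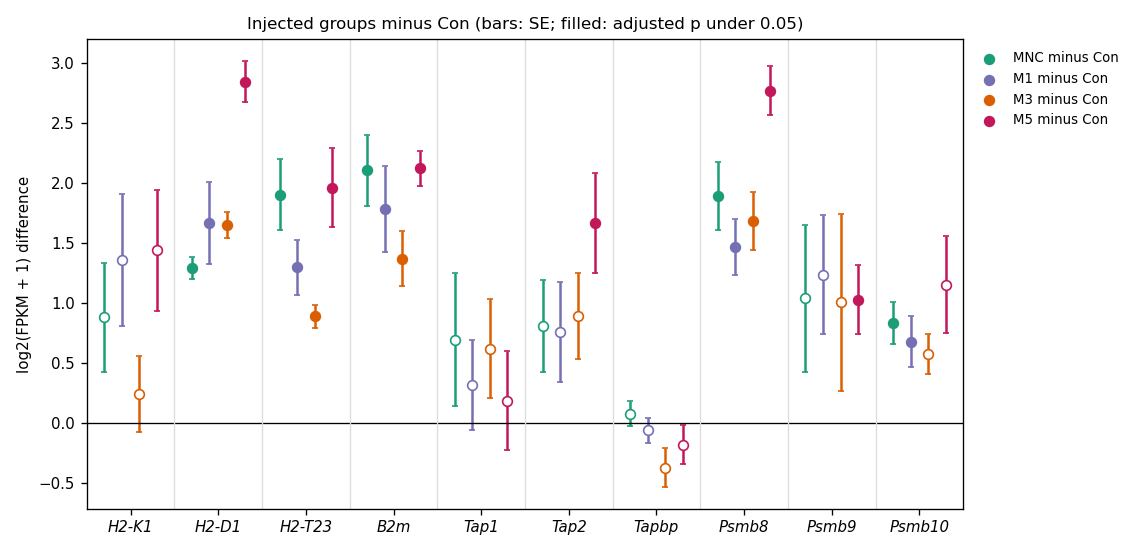
Difference from Con on the log2(FPKM + 1) scale for each gene in MNC, M1, M3 and M5 (points, 3 libraries against 3; bars are the SE of the limma fit; filled points have an adjusted p under 0.05). H2-D1, H2-T23, B2m and Psmb8 have filled points for all 4 groups, and H2-D1 in M5 is highest at 2.84.

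H2-D1 was the only member called between M5 and the vector control. In the comparison of M5 with MNC, both given virus, H2-D1 rose by 1.55 ± 0.184 (SE, log2 scale, adjusted p = 0.0153), from a mean of 36.9 ± 3.96 FPKM (SD, n = 3) in MNC to 112 ± 26.3 in M5, a ratio of 3.03. It was the only member called, 1 of 10 beside 2.76% of all genes called higher, and the only one with no overlap, beside 16.6% of all genes. Without M5 replicate 2, MNC replicate 2 or MNC replicate 3 its adjusted p was 0.0757, 0.0539 and 0.0719, at differences of 1.46, 1.59 and 1.46. The median over members was 0.19, against 0.025 over all genes. B2m, its partner chain, had means of 228.6 ± 39 FPKM in M5 and 238.6 ± 108 in MNC, and those ranges overlapped.

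Against M1, M5 differed in Psmb8, which was 10.5 ± 2.57 FPKM (SD, n = 3) in M5 and 3.73 ± 1.53 in M1. The difference was 1.30 ± 0.263 (SE, log2 scale, adjusted p = 0.0399), 1 of 10 members called beside 3.23% of all genes called higher. Psmb8 alone had no overlap, beside 18.8% of all genes. The call was lost in each of the 6 fits without 1 library, where adjusted p-values were 0.0554 to 0.139 and the difference 1.13 to 1.55. The median over members was 0.41, against 0.043 over all genes.

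Against M3, M5 had higher values of H2-D1, H2-T23, B2m, Tap2 and Psmb8 in every library than M3 in any, 5 of 10 members beside 14.4% of all genes. No member was called, and 0.0138% of all genes were, in either direction. At an unadjusted p under 0.05 there were 6 of 10 members and 2077 of 14514 genes. H2-D1 had the lowest p, with a difference of 1.20 ± 0.191 (SE, log2 scale) and an adjusted p of 0.286. Without M3 replicate 3 the member count was still 0.

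The remaining comparisons called no member. Between M3 and MNC, H2-T23 had the lowest p, at -1.01 ± 0.3 (SE, log2 scale, adjusted p = 0.518), with M3 libraries at 6.78 to 8.58 FPKM and MNC libraries at 12.17 to 27.87. Called genes made up 0.00689% of all there, and 3 members and 1369 of all genes had an unadjusted p under 0.05. Between M1 and MNC, H2-T23 differed by -0.61 ± 0.373 (adjusted p = 0.833), no gene at all was called (0%), and at an unadjusted p under 0.05 there were 0 members and 862 genes. Between M1 and M3, H2-K1 differed by 1.11 ± 0.505 (adjusted p = 0.899), 0% of all genes were called, and 0 members and 672 genes had an unadjusted p under 0.05.

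**Figure D3:**
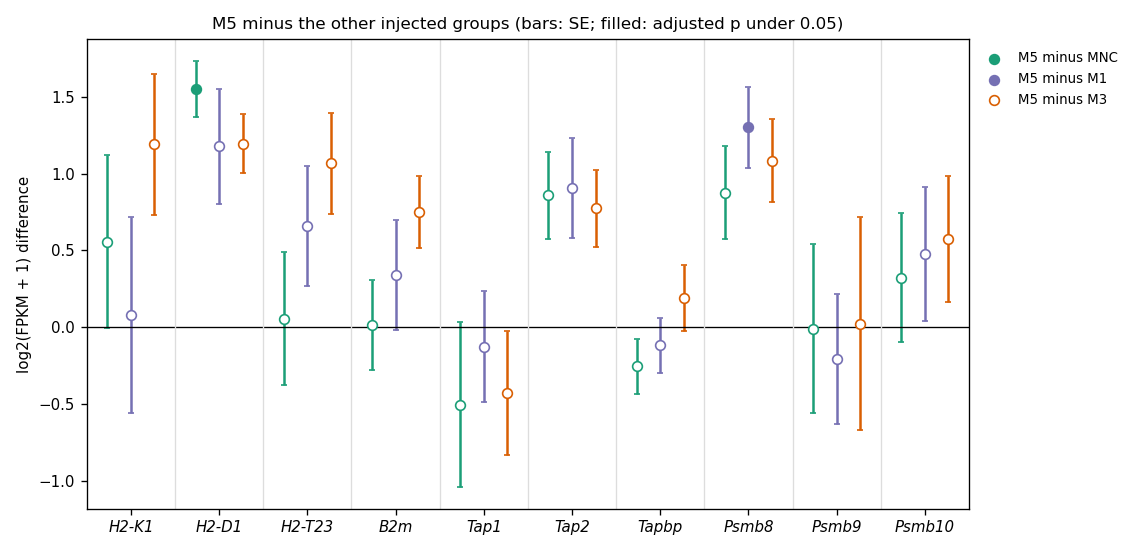
Difference of M5 from MNC, M1 and M3 on the log2(FPKM + 1) scale for each gene (points, 3 libraries against 3; bars are the SE of the limma fit; filled points have an adjusted p under 0.05). Only H2-D1 against MNC (1.55) and Psmb8 against M1 (1.30) are filled.

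The 2 classical heavy chains and their light chain did not keep 1 proportion. Within a library, the ratio of H2-D1 to B2m was 0.255 to 0.309 in Con, 0.109 to 0.215 in MNC, 0.253 to 0.293 in M1, 0.282 to 0.447 in M3 and 0.423 to 0.561 in M5. The MNC libraries lay below all others, and the M5 libraries above all but M3 replicate 3. The ratio of H2-K1 to B2m was 0.206 to 0.364 in Con, 0.0455 to 0.275 in MNC, 0.16 to 0.247 in M1, 0.111 to 0.126 in M3 and 0.106 to 0.286 in M5. For H2-K1 only the M3 libraries lay wholly below Con, and the M5 mean of 0.177 was under the Con mean of 0.26, so M5 was not high in both ratios. The ratio of H2-T23 to B2m, in contrast, stayed between 0.0428 and 0.0997, with Con at 0.0645 to 0.0831 and every other group overlapping it. These ratios need no scaling between libraries.

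The immunoproteasome subunit also moved against its constitutive counterpart. Psmb5 was at 43.31 to 56.72 FPKM over the 15 libraries, and the Psmb8 to Psmb5 ratio was 0.00782 to 0.0171 in Con, 0.0624 to 0.161 in MNC, 0.0519 to 0.105 in M1, 0.0596 to 0.123 in M3 and 0.175 to 0.282 in M5. Psmb8 stayed below Psmb5 in each library. The M5 ratios lay above those of every other group. For Psmb10 and Psmb7, the ratio was 0.0176 to 0.0235 in Con, 0.0343 to 0.0538 in MNC, 0.026 to 0.048 in M1, 0.0267 to 0.0441 in M3 and 0.0235 to 0.0957 in M5. The MNC, M1 and M3 libraries all lay above Con, and M5 replicate 1 was at the top of the Con range. Psmb6, the counterpart of Psmb9, had low values itself, at 1.78 to 4.96 FPKM, beside 128.73 to 162.53 for Psmb7. Why Psmb6 lay so far below Psmb5 and Psmb7 was not tested, so setting Psmb9 against it is uncertain. Psmb9 lay above Psmb6 in MNC replicate 1, M1 replicate 2, M3 replicates 1 and 2 and M5 replicates 1 and 2. In all other libraries, Con included, Psmb9 lay below Psmb6.

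**Figure D4:**
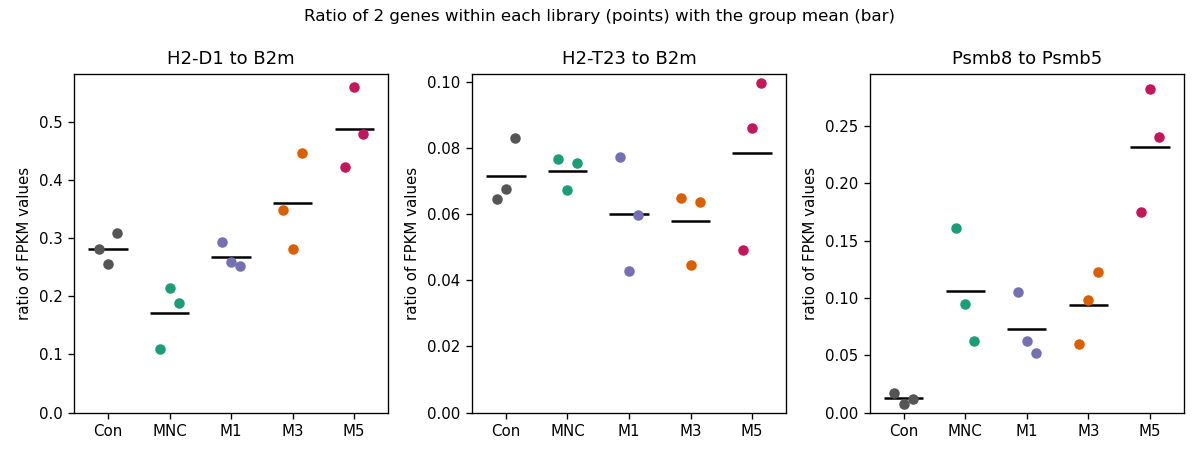
Ratio of FPKM values of 2 genes within each library (points; bars are group means) for H2-D1 to B2m, H2-T23 to B2m and Psmb8 to Psmb5. M5 is highest in the first (0.423 to 0.561) and the last (0.175 to 0.282), and the H2-T23 to B2m ratio of all groups lies between 0.0428 and 0.0997.

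The members differed in how much of their variation lay between groups. On the log2 scale, 89.1% of the variance of H2-D1, 87.1% of Psmb8, 78.8% of B2m and 76.9% of H2-T23 was between the 5 groups, beside a median of 55.1% over all genes tested. Psmb9 and Tap1 were at 22.5% and 17.4%. The spread within groups was wide for the members, with an SD of 0.244 (Tapbp) to 0.998 (Psmb9) log2 units, beside a median of 0.134 over all genes.

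Within groups the members tended to move together. After the group means were taken off, 41 of the 45 pairs of members had a Pearson r above 0 over the 15 libraries, with a median of 0.494, given as a description since the points share libraries. Such values for pairs of other genes were not computed, so the tendency is not shown to be particular to the members. H2-T23 and Psmb10 were closest (r = 0.879), followed by Tap1 and Psmb9 (r = 0.867), and H2-K1 and Tap1 lowest (r = -0.207). Tap1 and Psmb9 are the pair that share the stretch between their start sites printed above. Their annotated transcripts also overlap in sequence, since 6.47% of the 50-base windows of Tap1 are found in Psmb9, Tap2 or another gene and 12.5% of those of Psmb9 in Tap1. The strand setting of the counting is not given, so fragments of the 2 genes could be exchanged there, and how much of their common pattern comes from this was not tested.

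**Figure D5:**
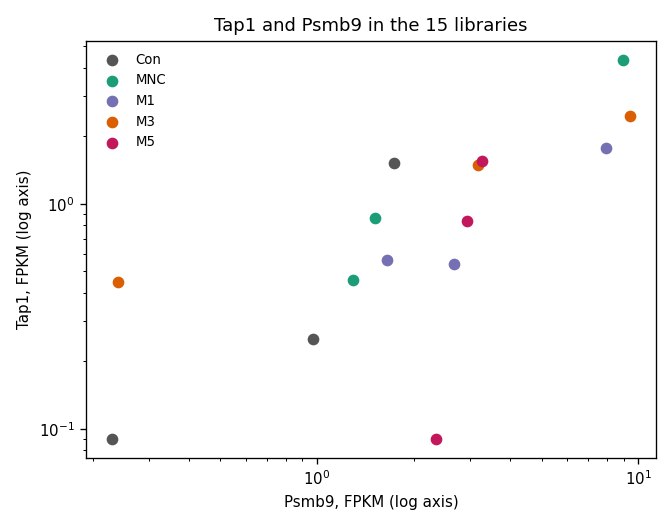
FPKM of Tap1 against FPKM of Psmb9 in the 15 libraries (both axes log; colours are groups). MNC replicate 1 is at the upper right with 4.37 and 8.98 FPKM, and Con replicate 3 at the lower left with 0.09 and 0.23.

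The same library was often the highest of its group for most members. MNC replicate 1 was the highest MNC library for 9 of 10 members, M1 replicate 2 the highest M1 library for 8, M3 replicate 2 the highest M3 library for 9 and M5 replicate 3 the highest M5 library for 7. The leukocyte marker Ptprc (CD45) was the highest of its group in those same 4 libraries, at 4.06, 5.06, 2.16 and 5.16 FPKM. In the other virus libraries Ptprc was at 1.2 to 4.14, and in Con at 0.51 to 0.76. In Con, replicate 3 was lowest for 8 members and had the lowest Ptprc, 0.51 FPKM.

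The lists of immune cell markers differed between groups as well, with macrophage markers going both ways. The summed level of the 13 T and natural killer cell markers was 8.41 to 10.2 FPKM in Con, 16.7 to 28 in MNC, 13.4 to 35.4 in M1, 13.7 to 19.9 in M3 and 25.9 to 28.1 in M5. Of these 13, 6 passed the filter and were tested, and a filter on the mean over all libraries favours markers that are high in the virus groups. Of the 6, 5 rose in MNC against Con, beside 8.03% of all genes called higher. Among them were Nkg7, by 1.70 on the log2 scale (adjusted p = 0.0192), and Cd3g, by 1.39 (adjusted p = 0.0354). Nkg7 belongs to cytotoxic granules and Cd3g to the T cell receptor complex, and their levels were 0.16 or lower in every Con library. Cd3d, of the same complex, was the tested marker that did not rise (0.006, adjusted p = 0.952). It was at 7.88, 6.82 and 7.4 FPKM in Con and made up most of the summed level there. The 13 macrophage markers summed to 86.7 to 113.3 FPKM in Con, 113.3 to 201.3 in MNC, 82.5 to 173.2 in M1, 83.3 to 111 in M3 and 141.1 to 364.3 in M5. In MNC 2 of the 12 tested, C1qb and Fcgr1, rose, beside 8.03% of all genes. In M1 against Con, C1qb rose and Mertk and Mrc1 fell, beside 10.3% of all genes called higher and 23.9% called lower. In M5 6 rose and none fell, beside 9.32% of all genes called higher. In M3 limma called 0 of the 12 higher, with 1 higher at an unadjusted p under 0.05, and Csf1r, Mertk and Mrc1 fell. The shares of all genes in M3 were 7.01% called higher and 15.1% called lower. No marker of either list was at 0 in every library. The 6 red blood cell markers in the table summed to 147.6 to 490.8 FPKM in M5 and to 98.9 or less in all other libraries. The part of these cells, and of the higher elongating spermatid sums outside Con, in the class I results was not tested.

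Genes of interferon response rose beside the members. Of 22 listed interferon-stimulated genes with values, 15 passed the filter and were tested. The filter uses the mean over all 15 libraries, so it favours genes that are high in the virus groups. Of the 15, 14 were called higher in MNC than in Con and none lower, beside 8.03% of all genes called higher, with a median difference of 1.29. Against Con, 9 rose in M1, 10 in M3 and 12 in M5, beside 10.3%, 7.01% and 9.32% of all genes. Cxcl9 and Cxcl10, chemokines that draw T cells, differed by 2.06 (adjusted p = 0.0112) and 1.99 (adjusted p = 0.0158) between MNC and Con, from means of 0.08 and 0.0767 FPKM in Con. Zbp1, a sensor of nucleic acids, differed by 1.75 (adjusted p = 0.0187) and Irgm1, an immunity-related GTPase, by 1.73 (adjusted p = 0.0121). Between M5 and MNC limma called 0 of the 15, and 0 had an unadjusted p under 0.05, at a median of 0.37.

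The regulators of class I transcription were mixed. Of 25 regulators and interferon signalling genes tested, 6 rose and 1 fell in MNC against Con, beside 8.03% of all genes called higher and 12.4% called lower. In M1 4 rose and 10 fell, beside 10.3% of all genes called higher and 23.9% called lower. In M3 3 rose and 8 fell, beside 7.01% and 15.1%, and in M5 5 rose and 1 fell, beside 9.32% and 12.3%. Among those that rose in MNC were Irf7 (1.93, adjusted p = 0.0162), Nlrc5, the transactivator of class I promoters (1.24, adjusted p = 0.0173), and Irf1 (1.09, adjusted p = 0.0164). Nlrc5 was at 1.06, 1.83 and 1.68 FPKM in Con, 6.14, 4.51 and 4.25 in MNC, 3.09, 4.74 and 3.79 in M1, 1.78, 2.59 and 1.13 in M3, and 2.26, 5.02 and 4.54 in M5. The M3 libraries of Nlrc5 overlapped Con, while MNC, M1 and M5 lay above it. Rfxap, a subunit of the RFX complex that binds class I and class II promoters, fell by 0.39 in MNC (adjusted p = 0.0254).

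Other heavy chain genes did not follow a single direction. Of 21 listed heavy chain and class I-like genes in the table, 8 passed the filter, and between MNC and Con H2-T22 rose by 2.15 (log2 scale, adjusted p = 0.0192) while H2-T10 fell by 0.80 (adjusted p = 0.044). Of all genes tested there, 8.03% were called higher and 12.4% lower. H2-T10 was listed at 0 in all 3 MNC libraries, at 0.32 to 1.35 FPKM in Con and at 2.17 to 3.49 in M5. H2-T22 was at 1.14 to 2.93 FPKM in Con, at 8.16 to 16.88 in MNC and at 0.13 to 4.81 in M3. H2-T10 and H2-T22 are close relatives whose fragments the mapping could split, so both are uncertain. In M5 against Con, 5 of the 8 rose, H2-M3, H2-Q4, H2-Q7, H2-T10 and H2-T22, beside 9.32% of all genes called higher. The filter uses the mean over all libraries, so it favours genes that are high in the virus groups. H2-M3, H2-Q7 and H2-T10 had Con means of 0.887, 0.48 and 0.787 FPKM, under the filter's threshold of 1. The count of 5 of 8 is therefore not independent of the filter.

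In the general machinery around the members no gene was called higher in MNC than in Con, beside 8.03% of all genes. Of 8 peptide loading and trimming genes, 2 fell in MNC against Con, beside the 12.4% of all genes called lower, Canx by 0.40 (log2 scale, adjusted p = 0.0198) and Calr by 0.26 (adjusted p = 0.0316), both chaperones of glycoproteins in the endoplasmic reticulum. Of 10 constitutive proteasome subunits, activators and assembly factors, 2 fell, Psma8 by 0.40 (adjusted p = 0.0278) and Pomp by 0.25 (adjusted p = 0.0331). Psma8 is a subunit of the proteasome of male germ cells and Pomp a proteasome assembly factor. By limma at an unadjusted p under 0.05, 1 gene of the loading list and 0 of the proteasome list were higher. In M5 against Con, 2 of the 8 loading genes rose, Tapbpl and Sec61g, beside 9.32% of all genes called higher. Of the 10 proteasome genes 2 fell, Psmb5 and Psma8, beside 12.3% of all genes called lower. By limma at an unadjusted p under 0.05, 3 loading genes were higher and 1 lower there, and 3 proteasome genes were higher and 3 lower.

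Heavy chain genes are alike in sequence, and this limits which gene a fragment is given to. Of the 50-base windows in the reference transcript, 14.3% of H2-D1, 8.79% of H2-K1 and 29.8% of H2-T23 also occur in another gene, compared with 0% of B2m and Psmb10 and 5.83% of Psmb8. The study's mapping allowed 2 mismatches. ICR mice are outbred and the reference is of another strain, so alleles that differ from it could map less well, and the haplotypes of these mice are not given.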

How the data were processed

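RNA was sequenced from 15 testis libraries in 5 groups of 3, and the sample titles gave group and replicate. M5 replicate 2 was matched to its column by title, since its description points to the column of replicate 1. The labels' extraction text mentions sperm, while titles and tissue say testis. Nothing states that replicates are separate mice, so p-values measure the spread between these libraries.

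The authors deposited 1 table of FPKM values to 2 decimals, made per the study's methods from poly(A) RNA on a HiSeq 2500 with SOAPaligner 2.20 and up to 2 mismatches. The submitters' processing notes name the build mm10, and the annotation is not given in the sources used here. Of 23510 gene IDs, 21143 (89.9%) matched RefSeq names, 2208 are BGI_novel IDs and 159 had no match. The depth is not stated, and it was estimated from the steps of low values in 47 genes and the length of 20 of them with 1 GENCODE transcript (median 21600000 fragments, quartiles 19700000 and 23300000).

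Values were analysed as log2(FPKM + 1), a scale that understates changes of low genes. The 14514 genes whose FPKM averaged at least 1 were fitted with limma 3.58.1 (lmFit, eBayes with trend) in R 4.3.3, with the 2 groups compared and no covariate, in place of the study's count test, since counts were not used here. Benjamini-Hochberg adjustment ran over all genes tested, with two-sided tests, and genes under an adjusted p of 0.05 count as called. The fit was tested on simulated data. Alternatives were a pseudocount of 0.1, no filter, centring on the median, eBayes without trend, a fit of all 5 groups together, replicate number as a block, and leaving out each replicate.

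The members and lists were chosen with earlier results of these data known. By rule, every member is given in each library and with its test between MNC and Con, in other comparisons where called or where it had the lowest p, and at most 4 called genes of each other list are given by the size of their difference between MNC and Con. The values of 1 such gene are not reported here. A few genes outside that rule are named because their count was small, because they serve as the partner in a ratio or as a constitutive counterpart, or as the marker Ptprc. The 5 genes most like the members are those with the highest Pearson r over the 15 libraries with the mean of the members' standardised values. Sequence windows, motifs and ratios were computed in Python 3.11.15 with pandas 2.3.3 and numpy 2.4.6.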

Additional observations from a re-analysis of the deposited data

Results flagged for a closer look

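Psmb8 was higher in M5 than in M1 by 1.302 on the log2(FPKM + 1) scale, with M5 libraries at 7.57, 12.31 and 11.64 FPKM and M1 libraries at 5.48, 3.1 and 2.62. It is listed because the direct comparison of the M5 and M1 groups called this gene (limma, adjusted p = 0.0399). The call was lost in 10 of 12 alternatives, every fit without 1 library included. Every M5 library lay above every M1 library, as was so for 18.8% of all genes tested. Ptprc was at 3.3 to 5.16 FPKM in M5 and 1.2 to 5.06 in M1, and its part in the difference was not tested.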

How the results depend on the processing

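The differences of the 10 members tested in the report were refitted under 372 alternatives in all, and those of the other named genes were not refitted. None changed direction, 293 kept their side of the threshold and 79 lost the call. The members called in MNC against Con, 5 in the report, numbered 1 with the replicate number as a block (H2-D1) and 0 to 5 when each replicate was left out. In M1 against Con the 5 became 3 with no filter and 1 to 5 without single replicates. In M3 against Con the 4 became 0 with the replicate block and 0 to 4 without single replicates. In M5 against Con the counts stayed at 4 to 6, but Psmb9 lost its call in 10 of 12 alternatives and Tap2 in 7. The 6 without M5 replicate 3 included Tapbp, which was lower in M5 there. In M5 against MNC the single call of H2-D1 became 0 with the replicate block and 0 to 1 without single replicates. In M5 against M1 the single call of Psmb8 became 0 with no filter, with centring on the median, without trend and with the replicate block, 2 with all 5 groups in one fit (H2-D1 and Psmb8), and 0 without any single replicate. Leaving out a library takes 1 of 6 from the fit, and other causes were not tested. Same-numbered libraries did not deviate together in every pair (r from -0.399 to 0.193). With 3 libraries in a group this cannot show whether the numbers pair the samples, and the titles give only group and replicate.

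With 3 libraries in a group, within-group SDs of up to 0.998 log2 units for Psmb9 limit the precision. Tap1, Tap2 and Psmb9 rest on an estimated 7.6 to 14.3 fragments in their lowest libraries, and Psmb8 on an estimated 18.1.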

Other observations

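The genes outside the class I lists whose pattern over the 15 libraries was most like the mean of the members were Coro1a (Pearson r = 0.967), Il2rg (0.961), Clec4a1 (0.954), Serping1 (0.954) and Lsp1 (0.953). With the group means taken off, r was 0.941, 0.886, 0.904, 0.940 and 0.880. Coro1a encodes an actin-binding protein of leukocytes, Il2rg the gamma chain shared by several interleukin receptors, Clec4a1 a C-type lectin of myeloid cells, Lsp1 an actin-binding protein of leukocytes, and Serping1 the inhibitor of complement C1, which many tissues make. Coro1a had a mean of 1.45 FPKM in Con, 5.42 in MNC, 6.64 in M1, 4.1 in M3 and 9.13 in M5, and Il2rg had means of 0.353, 2.76, 2.49, 1.74 and 3.82 in the same order. Serping1, the most abundant of the 5, was at means of 22.2 FPKM in Con and 30.2 to 60 in the other groups. These likenesses are descriptions over libraries that share groups and cell makeup and were taken to be of like depth.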
